A study of Mus musculus with 2 samples.

Results

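The 10 genes described here encode heat shock proteins and other chaperones, together with the transcription factor that induces many of them. They were the genes listed by name for the small heat shock proteins Hspb1, Hspb8 and Cryab, the chaperones of other families Hspa8, Hsph1, Dnajb1, Hsp90aa1, Hspd1 and Hspe1, and the factor Hsf1. The genes, and the chaperone and marker lists further on, were chosen with earlier results of these data known. Their counts beside the shares over all genes are therefore descriptions and test nothing. All probes that the platform annotation assigned to the 10 symbols were taken. Of the 10 genes, out of 16593 genes on the array, 9 had a probe under their symbol and together they had 12 probes. Hsf1 had 0 under its symbol, and whether any of the 1719 probes without a symbol reads it was not examined. The study measured total RNA of cultured mouse embryonic fibroblasts of C57BL background on Illumina bead arrays, with 1 deposited sample, referred to as its array, for each of 2 genotypes. The detection p-values, which compare each probe with negative controls, fell on steps of 1 in 3192, and a deposited value may be a mean over several measurements, whose nature and spread the sources used here do not give. The control line carried p53-/-, and the other carried Dnmt1-/- together with p53-/-, so both lines lacked p53. Dnmt1 copies DNA methylation onto newly made DNA. The labels did not state how many clones or embryos either line came from, and with 1 sample a genotype no difference could be tested, so every fold compares 2 samples.

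Chaperones bind unfolded or partly folded proteins and keep them from aggregating. Small heat shock proteins hold such proteins without using ATP, the HSP70 and HSP40 system with its HSP110 exchange factors refolds them, HSP90 matures kinases and receptors, and HSP60 with HSP10 forms a folding chamber in mitochondria. Heat and other protein damage release Hsf1, which binds heat shock elements, inverted repeats of the unit GAA and its complement TTC, in the promoters of these genes. Several small heat shock proteins, Cryab and Hspb8 among them, are also abundant in striated muscle without heat.

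The promoter sequences of genes that differed between the lines and of genes that did not are shown here, because heat shock elements are what many of these genes are known to share. A pair of units was searched as GAANNTTC or TTCNNGAA, and a triplet as GAANNTTCNNGAA or TTCNNGAANNTTC; each set reads the same on both strands, and every triplet also holds 2 overlapping pairs. Capitals mark the matches. The sequences are from RefSeq on GRCm38.p6, run 5′ to 3′ on the strand of the gene, and hold 250 bases before the annotated start and the first 30 transcribed bases. Hspb1 lies at chr5:135887669-135887948 on the plus strand, Hspb8 at chr5:116422835-116423114 on the minus strand, Hsph1 at chr5:149636286-149636565 on the minus strand and Hspe1 at chr1:55087898-55088177 on the plus strand.
Hspb1: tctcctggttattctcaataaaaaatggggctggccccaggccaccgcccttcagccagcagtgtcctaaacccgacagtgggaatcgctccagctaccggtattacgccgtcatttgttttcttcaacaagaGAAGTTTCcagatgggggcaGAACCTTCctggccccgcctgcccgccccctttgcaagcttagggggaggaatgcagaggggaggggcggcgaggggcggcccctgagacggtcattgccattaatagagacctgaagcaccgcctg
Hspb8: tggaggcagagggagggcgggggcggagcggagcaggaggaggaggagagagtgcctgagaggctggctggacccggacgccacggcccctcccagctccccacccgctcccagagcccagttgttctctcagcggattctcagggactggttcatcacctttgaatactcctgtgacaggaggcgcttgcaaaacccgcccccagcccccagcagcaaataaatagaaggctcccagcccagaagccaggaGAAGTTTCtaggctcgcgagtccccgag
Hsph1: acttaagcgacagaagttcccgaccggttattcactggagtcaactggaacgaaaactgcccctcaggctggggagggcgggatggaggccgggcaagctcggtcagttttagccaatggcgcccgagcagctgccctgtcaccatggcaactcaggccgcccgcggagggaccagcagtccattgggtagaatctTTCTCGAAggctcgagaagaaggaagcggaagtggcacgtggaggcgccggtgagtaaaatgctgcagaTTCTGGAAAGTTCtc
Hspe1: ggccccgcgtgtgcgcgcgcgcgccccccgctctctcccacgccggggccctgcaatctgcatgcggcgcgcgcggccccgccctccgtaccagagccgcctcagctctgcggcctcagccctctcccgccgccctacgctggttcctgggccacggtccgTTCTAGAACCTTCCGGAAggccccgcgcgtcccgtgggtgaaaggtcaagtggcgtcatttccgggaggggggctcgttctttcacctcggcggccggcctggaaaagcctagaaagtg

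Of the 10 genes, 6 had 9 promoter windows of 300 bases in the RefSeq table, and Cryab, Hspa8, Hsp90aa1 and Hsf1 had none. A pair of units was in 6 of these 9 windows, from 5 genes, against 15.1% of all 32851 windows. The 2 pairs of Hspb1 began 117 and 97 bases before its start, and the single pair of Hspb8 (GAAGTTTC) covered transcribed bases 3 to 10. The same 8 letters formed the first pair of Hspb1. Triplets, present in 0.603% of all windows, were in the windows of Hsph1 and Hspe1 and in 1 of the 2 windows of Hspd1. Hspe1 and Hspd1 are neighbours that start on opposite strands, so their matches are the same stretch of DNA read from either strand. The 2 windows of Hsph1 also overlap and hold the same matches. The 6 windows with a pair are therefore fewer separate stretches of DNA. Neither window of Dnajb1 held a match. CpG dinucleotides, the sites that Dnmt1 acts on, numbered 14 in the window of Hspb1 and 13 in that of Hspb8, against a median of 7 over all windows. The windows of Hsph1 held 18 and 19, and those of Hspd1, Hspe1 and Dnajb1 held from 36 to 41. Methylation was not measured in these files.

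**Figure D1:**
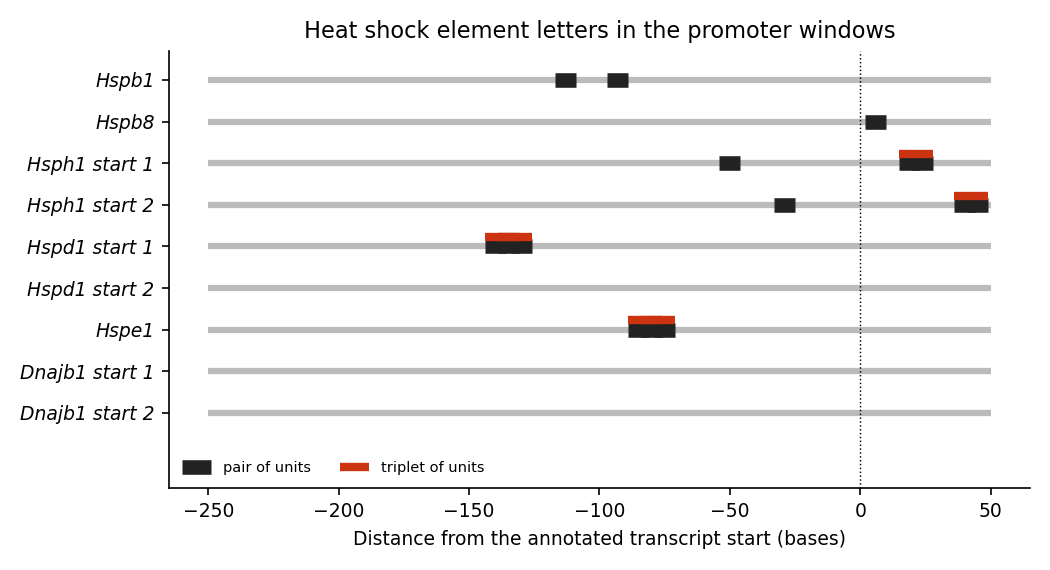
Positions of heat shock element letters in the 9 promoter windows of 6 genes, in bases from the annotated transcript start (dotted line), with black bars for pairs of units and red bars for triplets. The windows of Hspb1 and Hspb8 hold pairs alone, those of Hsph1, Hspe1 and the first start of Hspd1 hold triplets, and those of Dnajb1 hold neither.

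All 9 measured genes were detected on both arrays at a detection p-value under 0.01, as were 11 of their 12 probes. In the Dnmt1-/- (p53-/-) line 3 of the 9 genes were higher by 2-fold or more, and these were the small heat shock proteins Cryab, Hspb8 and Hspb1. None of the 9 was lower by 2-fold or more, and the 6 genes of other chaperone families lay within 1.25-fold. Over all 7727 genes detected on at least 1 array, the measured difference reached 2-fold upwards in 5.55% and downwards in 4.59%. Where 1 array did not detect a gene its fold is a lower limit, and the shares by that limit were 4.50% upwards and 3.71% downwards. The median difference of the 9 genes was 0.31 log2, against -0.04 log2 over all detected genes. The targeted gene Dnmt1 was 4.54-fold lower and still detected, by 1 probe; whether that probe reads the deleted region was not determined, so it may not check the label.

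Cryab, the alpha-B crystallin known from lens and muscle, gave a signal of 506 units in the control line and 1668 units in the Dnmt1-/- (p53-/-) line. After background correction and normalization its probe stood at 8.54 log2 and 10.62 log2, a 4.24-fold difference (2.09 log2). No replicate spread exists, so each difference is set beside the robust SD of the differences of the 500 genes nearest in level, which describes genes of these 2 arrays and not replicates. For Cryab this scatter was 0.36 log2, and 131 of the 7727 detected genes (1.70%) differed upwards by as much or more.

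Hspb8, which works with the co-chaperone Bag3 in the removal of misfolded proteins, gave 634 units in the control line and 1162 units in the Dnmt1-/- (p53-/-) line. On the normalized scale it went from 8.96 log2 to 10.07 log2, a 2.17-fold difference (1.12 log2) beside a scatter of 0.37 log2. Its partner Bag3, an HSP70 exchange factor that Hsf1 induces, differed by 0.19 log2.

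Hspb1, known as HSP27 or, in mouse, HSP25, caps actin filaments as well as binding damaged proteins. Its probe gave 1517 units in the control line and 2976 units in the Dnmt1-/- (p53-/-) line, and went from 10.43 log2 to 11.47 log2. The difference was 2.05-fold (1.04 log2), with a scatter of 0.31 log2. Among the 500 genes nearest in level, 2.4% were higher by 2-fold or more for Hspb1, 2.8% for Hspb8 and 3.4% for Cryab. Hspb1 and Hspb8 lay close to the 2-fold line, and without background correction they were at 0.98 and 0.97 log2, below it, while Cryab stayed at 1.81 log2.

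**Figure D2:**
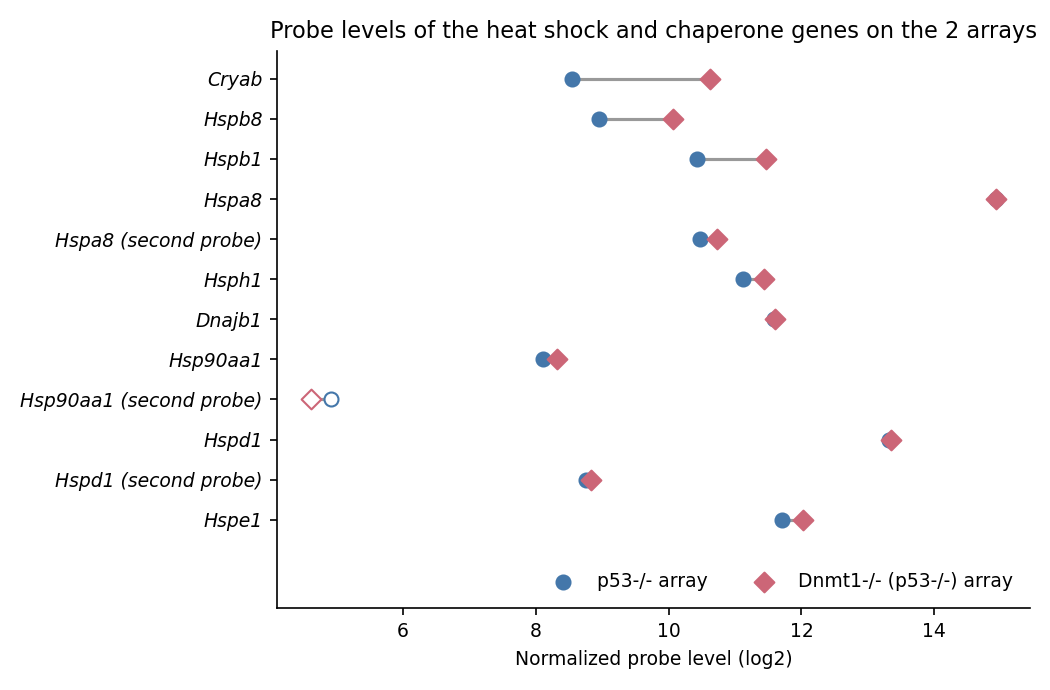
Normalized log2 level of each of the 12 probes, with circles for the p53-/- array and diamonds for the Dnmt1-/- (p53-/-) array; open symbols mark a probe detected on neither, and where only a diamond shows, the circle lies beneath it. The gap is widest for Cryab (8.54 to 10.62 log2), followed by Hspb8 and Hspb1, and the levels of the other detected probes differ by 0.32 log2 or less.

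The cytosolic HSP70 machinery differed little. Hspa8, the HSP70 that cells make without stress, was measured by 2 probes. The brighter gave 29900 units in the control line and 32408 units in the Dnmt1-/- (p53-/-) line. This probe had rank 19 on both arrays, so quantile normalization gave it the same level of 14.92 log2 on each and a difference of 0.00 log2, where median scaling gave 0.08 log2. The dimmer probe gave 1552 and 1764 units and differed by 0.25 log2.

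Hsph1, an HSP110 that exchanges the nucleotide of HSP70, gave 2348 units in the control line and 2908 units in the Dnmt1-/- (p53-/-) line. Its difference was 0.32 log2 (1.25-fold), below its scatter of 0.33 log2. Dnajb1, the HSP40 that hands proteins to HSP70 and is strongly induced by heat, gave 3152 and 3238 units, a difference of 0.01 log2.

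Hsp90aa1, the inducible cytosolic HSP90, had 1 probe above background, with 407 units in the control line and 411 units in the Dnmt1-/- (p53-/-) line. That probe differed by 0.20 log2 beside a scatter of 0.41 log2. The other probe was detected on neither array (detection p-values 0.257 and 0.611), so no fold is given for it. The transcript regions that the 2 probes read were not determined.

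The mitochondrial chaperonin genes were also close between the lines. Hspd1, the HSP60 subunit, gave 10090 and 10657 units with its brighter probe, a difference of 0.03 log2, and its dimmer probe, at 567 and 543 units, differed by 0.07 log2. Hspe1, the HSP10 lid of the same chamber, gave 3428 units in the control line and 4342 units in the Dnmt1-/- (p53-/-) line. This was 0.31 log2 (1.24-fold) beside a scatter of 0.28 log2. Hspa8, Hspd1 and Hspe1 have processed pseudogenes of similar sequence, so their probes may also bind other transcripts.

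Among the 9 genes, the lowest difference of the 3 small heat shock proteins was 1.04 log2 and the highest of the other 6 genes 0.32 log2. The medians of these groups were 1.12 and 0.12 log2. This gap holds for the listed genes and not for the whole small heat shock protein family, since Hspb6, described further on, differed by 0.04 log2. Of the 9 genes, 8 had a difference above 0 and Hspa8 one of 0.00 log2, while 45.8% of all detected genes lay above 0. The sign of the small differences was not the same in every setting. Hspa8 was at -0.01 log2 under cyclic loess, and Hsp90aa1 at -0.05 log2 with the mean of both probes. Median scaling put the dimmer probe of Hspd1 at -0.04 log2 and the median of all detected genes at -0.11 log2.

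**Figure D3:**
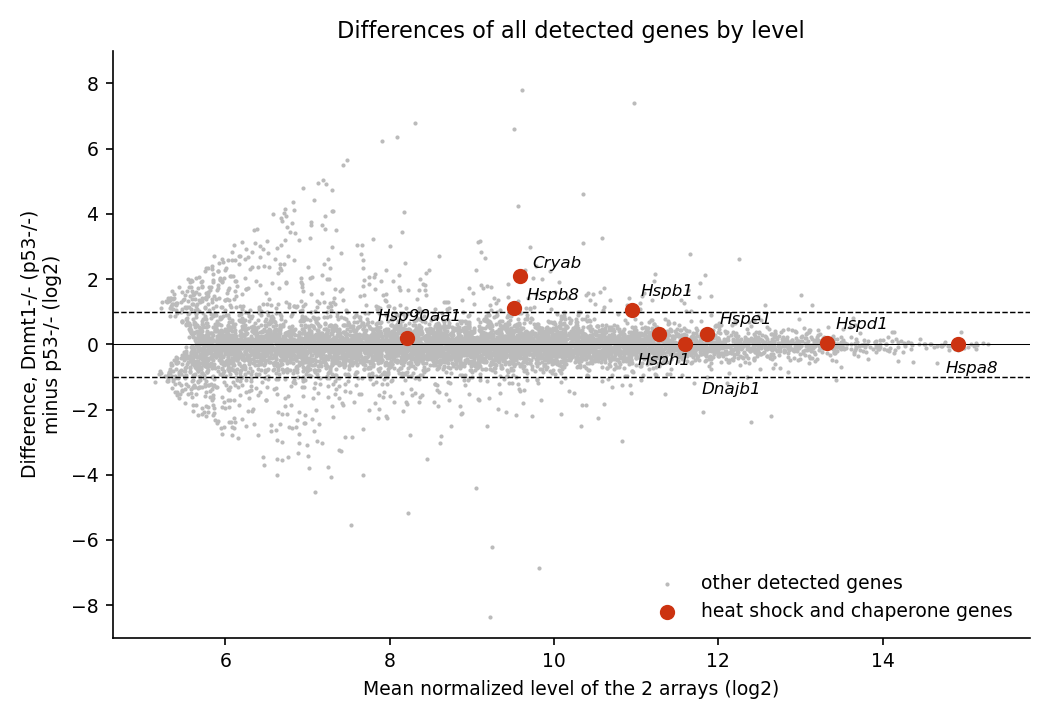
Difference of the Dnmt1-/- (p53-/-) array from the p53-/- array against mean level, both in log2, for the 7727 detected genes (grey) and the 9 measured heat shock and chaperone genes (red); dashed lines mark 2-fold. Cryab, Hspb8 and Hspb1 lie above the upper line, and the other 6 lie between 0.00 and 0.32 log2.

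Other small heat shock protein genes were also higher, though from undetected signals. The wider family list had 10 genes, 9 of them on the array and 6 detected, 4 in the control line and 6 in the Dnmt1-/- (p53-/-) line. Hspb2, a muscle small heat shock protein, gave 146 units without detection in the control line and 281 units in the Dnmt1-/- (p53-/-) line, and was at least 3.95-fold higher after background correction. Without that correction it differed by 1.14 log2, so the size rests on the correction. Hspb7, of heart and skeletal muscle, gave 133 units without detection and 166 units, and was at least 1.40-fold higher. Its measured difference of 1.38 log2 passed 2-fold, while its lower limit and its difference without background correction (0.54 log2) did not. Both genes entered the count through the array where they were high. Hspb6, also known from muscle, gave 4793 and 5076 units and differed by 0.04 log2. Cryaa, Hspb3 and Odf1 were detected on neither array.

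Hspb2 is the gene next to Cryab on chromosome 9, where they are transcribed in opposite directions. The 2 protein-coding genes on each side of Cryab, Hspb8 and Hspb1 were looked up, a choice made after the values of these 3 had been seen. Of the 12 neighbours 9 were on the array and 5 were detected. Besides Hspb2, Mdh2 near Hspb1 differed by 0.01 log2, Ywhag near Hspb1 by 0.35 log2 and Suds3 near Hspb8 by -0.40 log2. Dixdc1, on the other side of Cryab, was detected in the control line alone and was at least 1.87-fold lower after background correction, and -0.44 log2 apart without it.

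Muscle markers were higher in the same line. Of 21 markers of skeletal and cardiac muscle with a probe, the Dnmt1-/- (p53-/-) line had 12 detected and the control line 7. By the measured difference 11 of the 12 were higher by 2-fold or more, and 9 by the lower limit, with a median of 1.96 log2. Over all 7727 detected genes the shares were 5.55% and 4.50%, with a median of -0.04 log2. Of the 12, 5 were counted through the Dnmt1-/- (p53-/-) array alone. Without background correction 7 of the 12 were higher by 2-fold or more, as were 199 of the 7727 detected genes. The slow-muscle troponin gene Tnnt1 was 10.8-fold higher, the skeletal actin gene Acta1 8.79-fold, the myosin light chain gene Mylpf 6.18-fold and the fast-muscle troponin gene Tnnc2 at least 4.46-fold. Without background correction these differed by 2.41, 2.55, 1.51 and 1.10 log2. The level summed over the 21 markers, in normalized linear units, was 1599 in the control line and 7344 in the Dnmt1-/- (p53-/-) line. Des, Ckm, Myf5, Tnni1 and the myosin heavy chain genes Myh1, Myh4, Myh6, Myh7 and Myh8 were detected on neither array. The part of these markers in the difference of Cryab, Hspb8, Hspb1 and Hspb2 was not tested. In bulk samples, more cells of a type and more RNA per cell cannot be told apart.

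Markers of other cell types formed shorter lists, and higher markers were not particular to muscle. Of 11 fibroblast markers 9 were detected on both arrays, with Col1a1 and Vim among them and Lum and Postn on neither, and their summed level was 33300 in the control line and 27416 in the Dnmt1-/- (p53-/-) line. Of the 9, 7 had a difference below 0 and 2 one above 0, with a median of -0.51 log2. S100a4 was 3.98-fold higher and Dcn 3.58-fold lower, and the others did not reach 2-fold. Of 8 epithelial markers 3 were detected, all in the Dnmt1-/- (p53-/-) line and 0 in the control line, and Cdh1 was detected on neither. Krt14 and Krt7 were at least 8.74-fold and 7.63-fold higher after background correction, and 2.04 and 1.67 log2 apart without it. Krt8 did not reach 2-fold. The summed level of the 8 epithelial markers was 152 in the control line and 857 in the Dnmt1-/- (p53-/-) line. Endothelial markers had 1 of 7 detected, with a summed level of 119 in the control line and 730 in the Dnmt1-/- (p53-/-) line. That 1 was Eng, 9.37-fold higher, or 2.11 log2 apart without background correction. Pecam1, Cdh5, Kdr, Tek, Tie1 and Vwf were detected on neither array, so the higher endothelial sum rests on Eng alone. Haematopoietic markers had 2 of 4 detected, at 142 and 284. Neural and glial markers had 3 of 5 detected, with 590 in the control line and 195 in the Dnmt1-/- (p53-/-) line.

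The list of genes that heat induces through Hsf1 had 19 genes, of which 15 were detected. By the 2-fold rule 2 of the 15 were higher, Hspb1 and Cryab, as were 5.55% of all detected genes. The other 13 (86.7%) lay in between, as did 89.9% of all detected genes. Of the 15, 12 had a difference above 0 and 2 one below 0, while 45.8% of all detected genes lay above 0. The median of the 15 was 0.29 log2, against -0.04 log2 over all detected genes. Outside the 10 genes, 7 were detected and 0 passed, with a median of 0.29 log2 and a range from -0.27 to 0.77 log2. The co-chaperone Stip1, which links HSP70 to HSP90, gave 4107 and 3523 units (-0.27 log2), and the HSP90 partner Fkbp4 gave 6342 and 6133 units (-0.12 log2). Hspa1a, a heat-induced HSP70, was singled out after its value was seen, with 260 units in the control line and 323 units in the Dnmt1-/- (p53-/-) line. That was 0.77 log2 after background correction and normalization, beside a scatter of 0.41 log2, and 0.47 log2 without the correction. Both values lie below 2-fold, and the near-identical copy Hspa1b can bind the same probe. Among the heat shock factors and their regulators 3 were detected and 0 passed. Hsf2, a second heat shock factor, differed by 0.15 log2 and Hsbp1, which binds Hsf1, by 0.01 log2. Hsf4 gave 214 units in the control line and 152 units without detection in the Dnmt1-/- (p53-/-) line. It differed by -0.78 log2, or by -0.30 log2 without background correction. With the authors' processed values 1 gene of this list was lower by 2-fold or more.

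The remaining chaperone lists are counted without the 10 genes. Beside their counts, 4.59% of all detected genes were lower by 2-fold or more, and 3.71% by the lower limit. Of the HSP70 and HSP110 chaperones 7 were detected and 1 was lower, Hspa12b, a distant HSP70 relative of endothelial cells, by 2.74-fold (431 and 208 units). The brighter probe of the mitochondrial HSP70 gene Hspa9 gave 15993 units in the control line and 17926 units in the Dnmt1-/- (p53-/-) line. Quantile normalization gave it the same level of 14.04 log2 on each array, so its difference of 0.00 log2 rests on that step. Hspa2, an HSP70 of the testis, differed by -0.34 log2. Without background correction Hspa12b differed by -0.90 log2, below 2-fold. Of the J-domain proteins, the family of HSP40, 25 were detected and 2 were lower. By the brighter of its 2 probes Dnajc12 was at least 2.04-fold lower. That probe gave 228 units in the control line and 128 units without detection in the Dnmt1-/- (p53-/-) line. Dnajc8, a protein of RNA splicing, was 2.19-fold lower, with 369 and 206 units. Neither passed 2-fold without background correction, at -0.64 log2 for Dnajc12 and -0.67 log2 for Dnajc8. With the mean of all probes 1 gene of this list was lower. It was Dnajc8, which has 1 probe, so Dnajc12 did not pass there.

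The other 5 lists held no gene past 2-fold, and 89.9% of all detected genes did not pass it either. Among 15 detected HSP90 chaperones and co-chaperones the median was -0.12 log2, with Hsp90b1, the HSP90 of the endoplasmic reticulum, at -0.19 log2 and the cyclophilin Ppid at -0.20 log2. The 11 HSP70 exchange factors and co-chaperones had a median of 0.14 log2, and Bag1, an exchange factor, differed by 0.05 log2. For 11 mitochondrial chaperones and proteases the median was 0.08 log2, with the import protein gene Dnajc19 at 0.08 log2. In the cytosolic chaperonin TRiC with prefoldin, which folds actin and tubulin, 12 genes were detected, with a median of 0.05 log2, and the subunit genes Cct6a and Tcp1 differed by -0.17 and 0.06 log2. Endoplasmic reticulum chaperones, which the unfolded protein response induces, had 12 detected genes and a median of -0.11 log2. P4hb, a protein disulphide isomerase, differed by -0.08 log2.

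**Figure D4:**
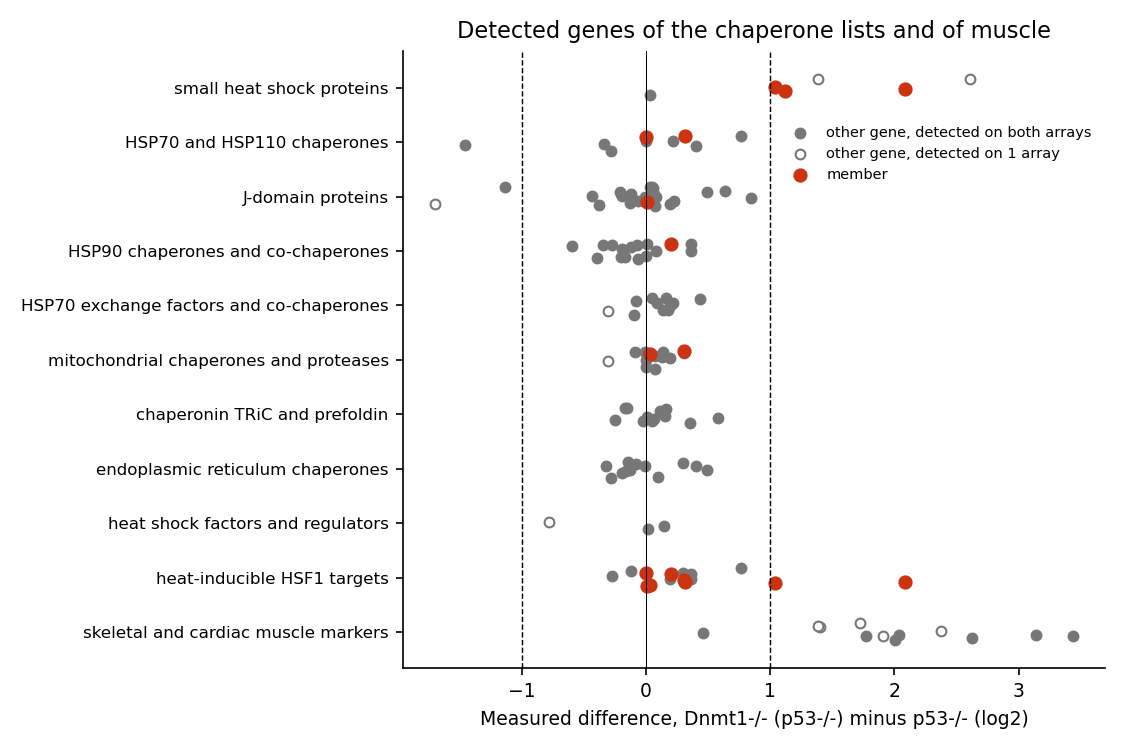
Measured log2 difference of each detected gene in 10 chaperone lists and a muscle marker list, with the described genes in red, other genes in grey and open symbols for genes detected on 1 array; dashed lines mark 2-fold and the vertical scatter within a list carries no value. Differences above 2-fold stand in the small heat shock proteins, the heat-inducible list through Hspb1 and Cryab, and the muscle markers, and 3 other chaperone genes lie below the lower line.

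The plot of settings gives the differences of the 9 genes under the processing described and 9 alternatives. Across these 10 settings Cryab ran from 1.81 to 2.11 log2 and was above 2-fold in 10. Hspb8 ran from 0.97 to 1.13 log2 and Hspb1 from 0.98 to 1.07 log2, each above 2-fold in 9. Each of these 3 genes had 1 probe, detected on both arrays. The settings of detection threshold, dim probes, mean of all probes and limits therefore could not change their values, and only the other settings could. Hsph1 ran from 0.30 to 0.35 log2 and Hspe1 from 0.30 to 0.36 log2. The authors' deposited processed intensities, made by a method that is not known here, gave 373 and 1534 units for Cryab, 502 and 1037 units for Hspb8, and 1394 and 2828 units for Hspb1.

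**Figure D5:**
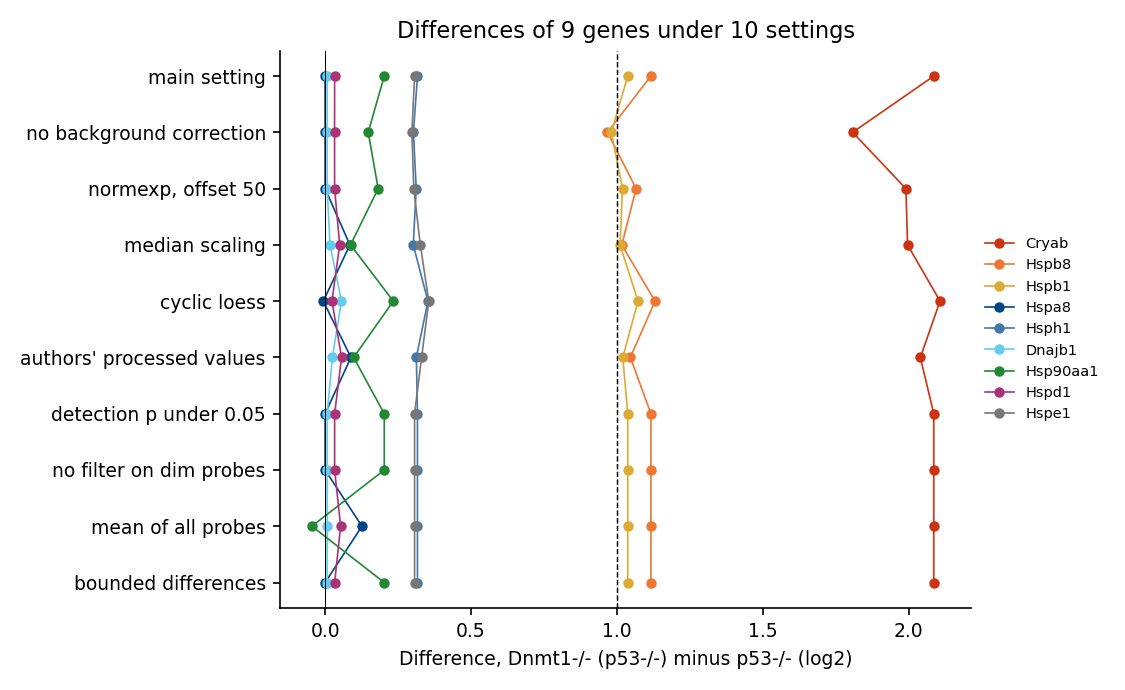
Log2 difference of each of the 9 measured genes (colours) under 10 processing settings (rows of points); the dashed line marks 2-fold. Cryab stays above the line throughout, Hspb8 and Hspb1 lie on its upper side except without background correction, and the other genes stay between -0.05 and 0.36 log2.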

How the data were processed

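Total RNA of 1 p53-/- and 1 Dnmt1-/- (p53-/-) fibroblast sample was measured. The deposited probe intensity values are linear and not normalized, per the file headers, and come with a deposited detection p-value for each probe. No source used here names the scanner software. The authors' own processed intensity values form another table, with a shared column mean of 507, medians of 14.2 and 13.8, and 26.7% and 26.4% of values below 0; its method is unknown. Median signals were 151 and 130 units, and 40.1% and 39.1% of 25697 probes were detected (detection p-value under 0.01). The number of arrays limits the precision.

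Background correction and normalization used neqc of limma 3.58.1, under R 4.3.3 (negative-control parameters inferred from detection p-values, offset 16, quantile normalization, log2). A run on simulated data changed only probes well above background, and by more than 2-fold. It did not check 2-fold calls or folds of dim probes. Of the probes, 23978 had 1 gene symbol, 0 several and 1719 none. The probe with the highest mean level stood for each of 16593 genes. Genes passed at a difference of 2-fold or more. A lower limit was taken against the lowest detected level (5.57 log2 in the control, 5.66 log2 in the Dnmt1-/- (p53-/-) line) or the dim probe's own value, whichever was higher. Python 3.11.15 with pandas 2.3.3 and matplotlib 3.10.9 did the rest. Named genes were all 10 genes, Dnmt1, and from each list up to 4 past 2-fold or, with fewer than 2, up to 2 with the highest level. The genes and lists were chosen with earlier results of these data known. Alternatives covered background correction, offset, scaling, detection threshold, probe choice, limits and fold.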

Additional observations from a re-analysis of the deposited data

How the results depend on the processing

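Without background correction 1 of the 9 measured genes was higher by 2-fold or more instead of 3, and over all genes 199 were higher and 142 lower instead of 429 and 355. With an offset of 50, 233 were lower, and with the authors' processed values 568. At 1.5-fold 774 genes were higher and 824 lower. Past the fold used, 3 of the 9 genes were higher under the other 9 alternatives and 0 were lower under all 10, and the median difference stayed between 0.30 and 0.35 log2. The alternatives of detection threshold, dim probes, mean of all probes, limits and lower fold could not remove any of these 3 genes. Each had 1 probe, detected on both arrays. Of 282 further values, 13 moved, all of them counts in chaperone lists that changed by over 1.5 times, and 0 changed sign among those past 2-fold. Apart from the lower threshold at 1.5-fold, the cause was not tested. No paired analysis was possible because each genotype had 1 sample. Signal over background limits the folds of genes undetected on 1 array, such as Hspb2, Hspb7 and Dnajc12, and background correction decided whether Hspb1 and Hspb8 passed 2-fold.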
